A study of Mus musculus with 31 samples.

Results

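Imprinted genes of the mouse hypothalamus were taken from a list of 49 genes known by symbol to be imprinted in the mouse, or to lie in an imprinted domain. This rule uses no measured value, though the list was chosen with earlier results of these data known. Of the 49 genes, 48 matched 1 of the 54532 genes in the table of read counts, 46 had enough reads to be tested among 18743 genes, and Th-ps is not analysed here. Levels were read in 31 libraries of hypothalamic total RNA from inbred C57BL/6J mice, and fall into 4 groups by the dam's diet and the offspring's sex. Control females (8 libraries) and control males (8) came from dams on a control diet, and obesogenic females (7) and obesogenic males (8) from dams given a diet high in fat and sugar through pregnancy and lactation. From weaning at postnatal day 21 the offspring of both kinds of dam ate standard chow, and at 3 months of age every one of them, the control groups included, was put on the obesogenic diet for 4 weeks, so that at 4 months the groups differed in what the dam had eaten and not in their own diet. The labels give no animal, litter or batch, so the p-values reflect only how far libraries of a group differ, which may in part be technical.

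At an imprinted gene, RNA is made mainly from the copy inherited from one parent, because DNA methylation laid down in the egg or the sperm marks a control region that silences the other copy. Many imprinted genes lie in clusters, or domains, whose genes can share such a control region. Many of these genes act in fetal growth, placental transport, feeding and the development of the hypothalamus. Loss of the paternally read genes of the Prader-Willi domain leads to overeating in people. The counts do not separate the maternal from the paternal copy, so every value below is the sum of both.

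Start regions of 4 members are shown because the methylated form of the motif TGCCGC is what the protein ZFP57 recognises when it protects imprints. The motif was searched for as TGCCGC on both strands, the other strand reading GCGGCA, in windows from 250 bases before to 50 bases after each RefSeq gene start of build GRCm38.p6. It lay in the windows of 14 of the 39 members that have one (35.9%) and of 3527 of 27025 genes overall (13.1%), and in 11.6% of 32851 windows. The 14 were Calcr, Commd1, Copg2, Dhcr7, Grb10, Mcts2, Meg3, Mest, Nap1l5, Nnat, Plagl1, Snrpn, Snurf and Zim1. A gene was counted if any of its windows held the motif. Snrpn and Snurf, which overlap, were counted separately. Sequences run 5′ to 3′ on the gene's own strand, with the motif on either strand in capitals, for Nnat (chr2:157559828-157560127, plus strand) and Nap1l5 (chr6:58907077-58907376, minus strand), the members with the highest levels per length, and for Meg3 (chr12:109540746-109541045, plus strand), a member with a wide spread between libraries. The last is the plus strand of chr7:6730333-6730632, which holds the starts of Peg3 and Usp29, genes read in opposite directions. There the capitals mark the 165 bases from the Peg3 start (6730419) to the Usp29 start (6730583), and the motif was found 0 times.
Nnat: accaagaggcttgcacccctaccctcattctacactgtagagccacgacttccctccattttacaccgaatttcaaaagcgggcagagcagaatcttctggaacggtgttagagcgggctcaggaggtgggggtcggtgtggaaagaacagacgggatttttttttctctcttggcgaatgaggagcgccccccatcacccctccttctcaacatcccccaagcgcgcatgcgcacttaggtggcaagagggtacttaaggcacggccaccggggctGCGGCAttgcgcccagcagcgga
Nap1l5: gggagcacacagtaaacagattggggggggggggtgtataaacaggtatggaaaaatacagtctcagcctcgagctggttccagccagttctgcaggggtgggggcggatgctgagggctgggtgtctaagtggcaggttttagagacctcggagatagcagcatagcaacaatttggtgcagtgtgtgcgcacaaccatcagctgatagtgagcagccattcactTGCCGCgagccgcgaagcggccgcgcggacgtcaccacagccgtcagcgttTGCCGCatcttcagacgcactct
Meg3: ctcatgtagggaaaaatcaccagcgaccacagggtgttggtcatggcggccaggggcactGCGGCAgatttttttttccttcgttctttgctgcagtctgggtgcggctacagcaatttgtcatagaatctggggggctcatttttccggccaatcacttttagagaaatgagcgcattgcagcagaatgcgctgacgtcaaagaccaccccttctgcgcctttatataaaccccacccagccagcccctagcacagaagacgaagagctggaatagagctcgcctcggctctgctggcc
Peg3 and Usp29: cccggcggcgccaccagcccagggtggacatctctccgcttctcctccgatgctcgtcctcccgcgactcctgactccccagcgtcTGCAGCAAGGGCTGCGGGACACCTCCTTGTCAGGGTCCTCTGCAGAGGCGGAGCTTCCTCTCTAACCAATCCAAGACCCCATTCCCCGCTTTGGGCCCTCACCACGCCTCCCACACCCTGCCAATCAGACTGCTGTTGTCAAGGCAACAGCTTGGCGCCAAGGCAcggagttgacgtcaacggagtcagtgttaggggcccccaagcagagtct
A match is a description of these letters and no evidence of binding.

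Library totals ran from 23118626 to 38547288 read pairs, so that 1 pair was worth 0.0254 to 0.0442 CPM, the count scaled to the size of its library after TMM scaling. In 5 libraries the values or labels were in doubt. Control female 5, control male 6 and obesogenic female 3 had median correlations with the other libraries of 0.910, 0.914 and 0.936, against 0.967 to 0.979 in the other 28, and 1 library labelled female and 1 labelled male (control female 7 and control male 7) had sex-linked genes that went against the label, which leaves 26 kept in the checks below. Obesogenic female 3 and control male 6 had reads for 18513 and 18734 genes, against 21311 to 22918 in the other 29. In control female 5 the summed level of 17 hypothalamic neuron markers was 181 CPM, against 1639 to 2024 CPM in the 6 control females kept. That of 8 olfactory bulb markers was 2966 against 284 to 382 CPM, and the 6 pituitary markers had 0 reads. The hypothalamic markers were present in every other library, with a lowest sum of 1292 CPM, and 1 of the 17 had 0 reads throughout. All libraries stay in the groups of their labels unless a value is said to be without these 5.

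Many of the 49 listed imprinted genes were among the more abundant transcripts. Levels of the 37 other imprinted genes read further below are not given here. Over the 26 libraries kept, the median level of the 46 tested members was 11.4 reads per kilobase of exon, scaled for depth (RPKM), against 3.55 RPKM over all 18743 genes tested. Of the 46, 34 lay above that overall median and 14 above the 90th percentile of all genes. Summed, they took 1.37% of the reads. The highest levels per length were those of Nnat (793 RPKM), which encodes the small membrane protein neuronatin, and Nap1l5 (733 RPKM), a nucleosome assembly protein gene without introns. Impact, whose product restrains the amino acid sensor GCN2, stood at 227 RPKM. Gnas, encoding the stimulatory G protein subunit that couples hormone receptors to cyclic AMP, had 212 RPKM, Ndn (necdin) 165 RPKM and the splicing protein gene Snrpn 149 RPKM. In all, 22 members lay over 100 CPM, 15 between 10 and 100 CPM, 5 between 1 and 10 CPM and 4 at or under 1 CPM (Mkrn3, Dio3, H19 and Nespas). The 2 members not tested were Phlda2, with 5 read pairs in 2 libraries, and Snurf, with 0. All 216 exon bases of Snurf are shared on its strand with Snrpn or Gm38393, and pairs that overlap more than 1 gene were not counted, so its 0 says nothing of its level, and Snrpn, with 27.3% of its exon bases shared, is undercounted.

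**Figure D1:**
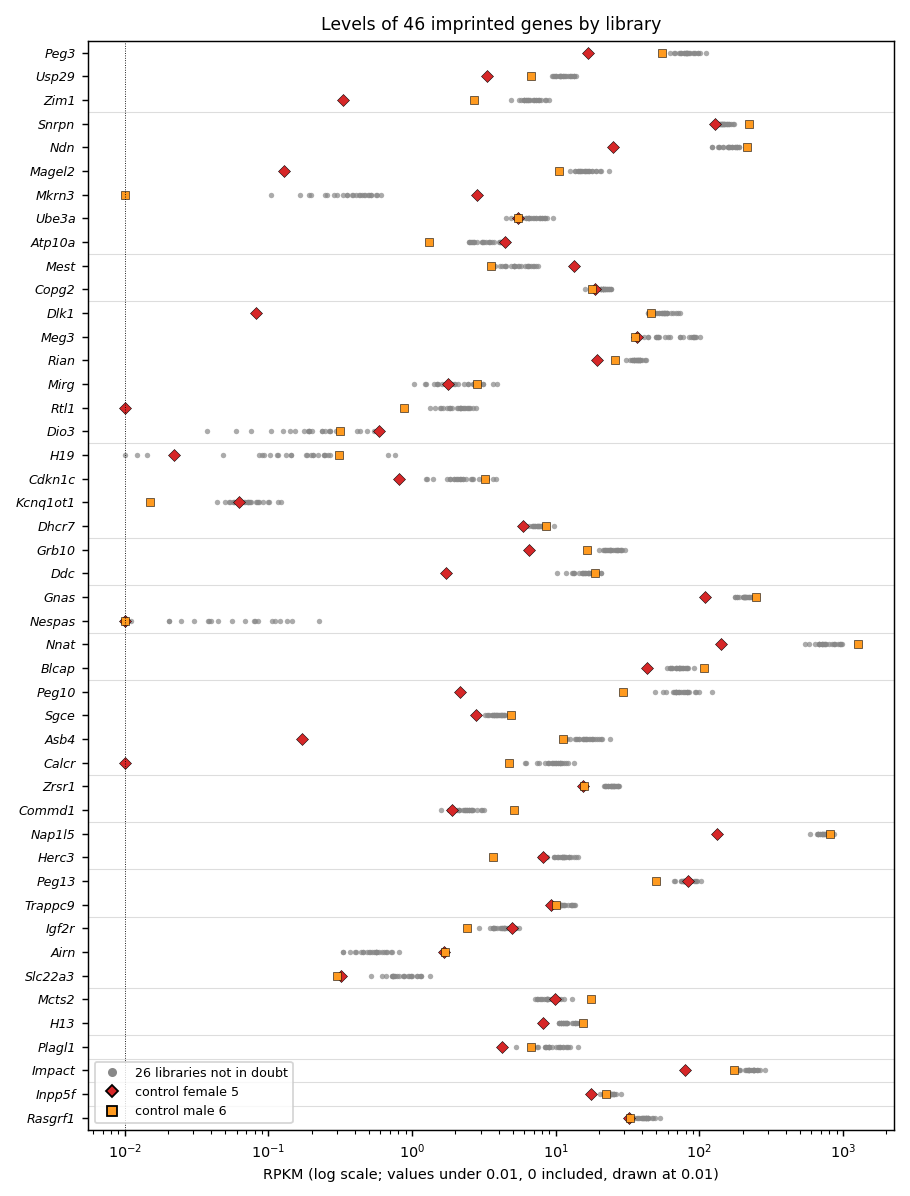
Level per length (RPKM, log axis) of the 46 tested imprinted genes, in order of domain with grey lines between domains. Grey points are the 26 libraries kept, the red diamond is control female 5 and the orange square control male 6, while the other 3 libraries in doubt are not drawn. Nnat and Nap1l5 lie furthest right, and Dlk1, Magel2, Peg10, Asb4 and Calcr of control female 5 lie far left of the grey points.

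The median spread of members between libraries of a group was close to that of all genes. The 2 sets were not matched for level, and members had the higher median level (11.4 against 3.55 RPKM). The within-group standard deviation of log2 CPM had a median of 0.21 over the 46 members and 0.23 over all genes, and 21 of the 46 lay above the overall median. Inpp5f (0.10), Snrpn (0.11), Rian (0.11) and Zrsr1 (0.11) were among the steadiest. Meg3 (0.49) and Mirg (0.52), which lie in the same cluster as Rian and are read from the same, maternal, chromosome, were above the 95th percentile of all genes. H19 (0.55) was measured from few reads.

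The question of the study was whether the dam's obesogenic diet left a mark on the adult offspring's hypothalamus. For imprinted genes, no difference between the offspring of obesogenic and control dams passed the threshold in either sex. Among daughters 0 of 46 members passed an adjusted p of 0.05 in edgeR's quasi-likelihood test (background 0% of 18743 genes), and 3 had an unadjusted p below 0.05 (background 8.12%). Among sons 0 passed (background 0%), and 0 had an unadjusted p below 0.05 (background 3.45%, and also 0 without the 5 libraries, background 2.7%). DESeq2 called 0 members in either sex, and 6 and 1 genes overall in females and males. The largest differences in size were those of members with few reads, Mkrn3 (-1.26) and Nespas (1.28) in females on the log2 scale. The 95% interval of the log2 fold change lay within ±0.5 for 20 of 46 members in females and 23 of 46 in males, and for 35 and 36 without the 5 libraries. The ranges of the control and obesogenic groups overlapped for each of the 46 members in both sexes (background 0.117% of genes without overlap in females and 0.016% in males, and 0.427% and 0.0534% without the 5 libraries, where all 46 again overlapped).

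**Figure D2:**
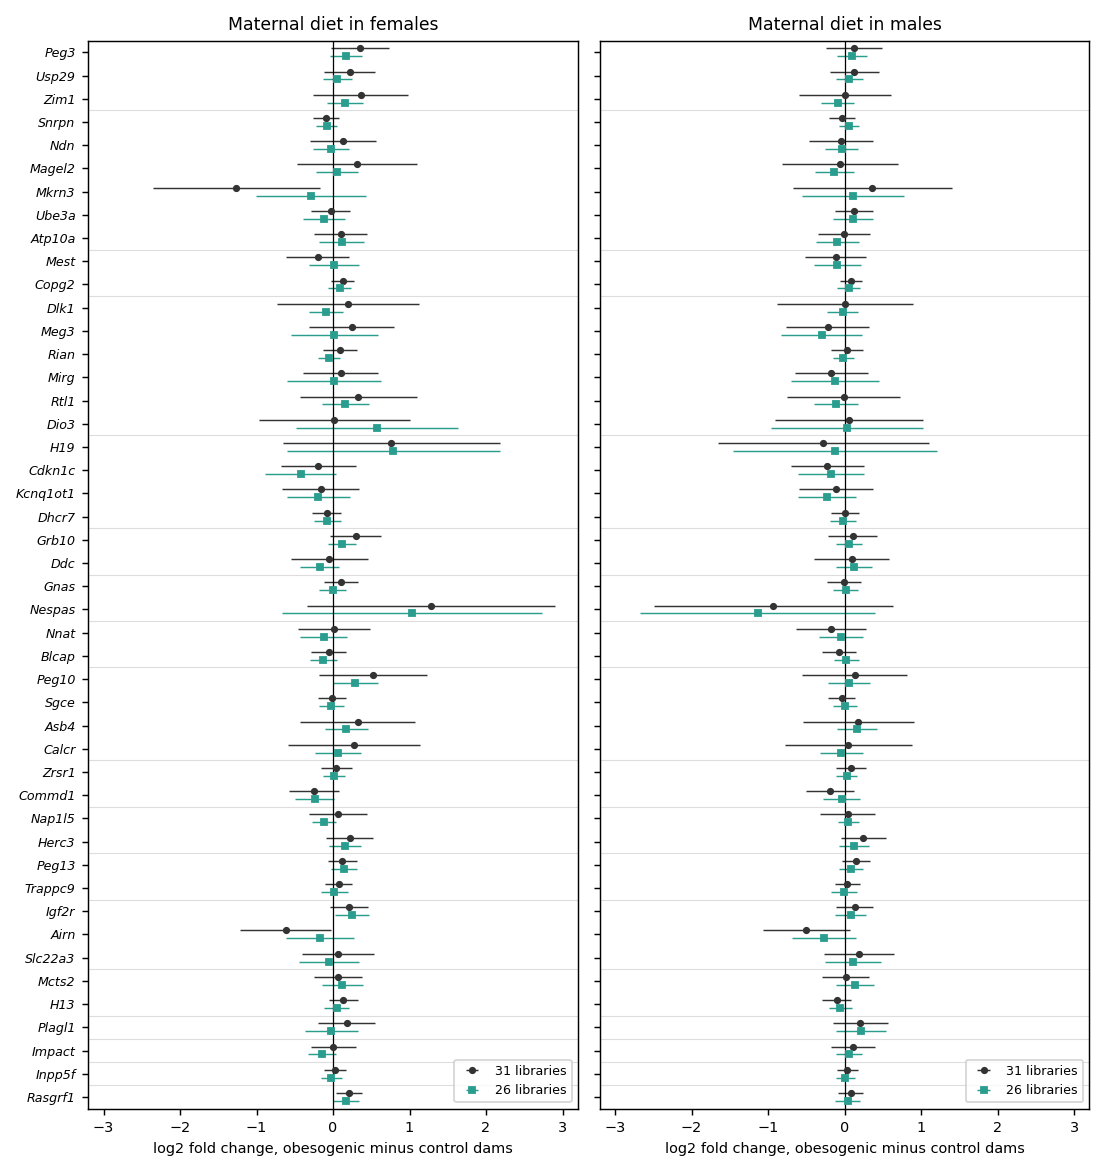
Log2 fold change for the dam's diet (obesogenic minus control) of each tested imprinted gene in female (left) and male (right) offspring, with 95% intervals from the edgeR fit. Black circles use 31 libraries and green squares 26. In females 34 of 46 circles and 25 of 46 squares lie right of 0, and intervals are widest for Nespas, H19, Mkrn3 and Dio3.

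The share of members with a log2 fold change above 0 in daughters depended on the libraries in doubt. With all libraries it was 34 of 46 (background 47.5%), with a median log2 fold change of 0.10 against -0.013 over all genes. Without the 5 libraries it was 25 of 46 (background 48.8%), with a median of 0.014. In sons it was 26 of 46 (background 50.1%, median 0.023), and 25 of 46 without the 5 libraries (background 52%, median 0.014). Control female 5, whose hypothalamic markers were low, and control female 7 belong to the control side of the comparison in daughters. Obesogenic female 3 belongs to the other side. The part of each library in the change was not tested.

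The Peg3 domain on chromosome 7 holds 3 tested members, of which Peg3 (6703892 to 6730431 in build GRCm38, as are all gene positions here) encodes a zinc finger protein of neurons that in mice is needed for normal feeding and maternal care. The lowest, median and highest level of Peg3 were 224, 1051 and 1145 CPM for control females, 953, 1212 and 1351 CPM for obesogenic females, 736, 1086 and 1239 CPM for control males and 901, 1094 and 1469 CPM for obesogenic males. One library, control female 5, held the lowest value, and the ranges of the groups overlapped. The log2 fold change of Peg3 for maternal diet, obesogenic minus control and given here and below ± its standard error, was 0.35 ± 0.19 in females and 0.13 ± 0.18 in males (0.17 ± 0.10 and 0.093 ± 0.097 without the 5 libraries). Its neighbour Usp29, encoding a ubiquitin protease, had lowest, median and highest levels of 59.8, 193 and 226 CPM for control females, 180.1, 204 and 233 CPM for obesogenic females, 122, 203 and 251.9 CPM for control males and 174, 216 and 241.4 CPM for obesogenic males. Control female 5 and control male 6 held its lowest values, and the other libraries of the groups overlapped. Usp29 differed by 0.22 ± 0.16 in females and 0.13 ± 0.16 in males (0.058 ± 0.093 and 0.060 ± 0.087 without the 5 libraries) on the log2 scale.

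The Prader-Willi and Angelman domain, also on chromosome 7, holds paternally read genes and Ube3a, which neurons read from the maternal copy. Snrpn (59982495 to 60140219) lay at lowest, median and highest levels of 277.6, 319 and 367 CPM for control females, 279.2, 298 and 342 CPM for obesogenic females, 293, 321 and 475 CPM for control males and 299, 326 and 373 CPM for obesogenic males, nearly level across the groups apart from control male 6, its highest library. For the diet of the dam, Snrpn gave a log2 fold change of -0.093 ± 0.084 in females and -0.034 ± 0.081 in males (-0.084 ± 0.069 and 0.054 ± 0.064 without the 5 libraries). Ndn and Magel2 encode related proteins of the MAGE family and are known from hypothalamic neurons. Ndn showed lowest, median and highest levels of 92.9, 567 and 701 CPM for control females, 449.6, 582 and 792 CPM for obesogenic females, 498, 651 and 791 CPM for control males and 542, 612 and 701 CPM for obesogenic males. Magel2 had 0.595, 72.2 and 108 CPM for control females, 63.4, 78.9 and 105 CPM for obesogenic females, 48.7, 75.4 and 95.03 CPM for control males and 58.1, 70.8 and 88.5 CPM for obesogenic males, again lowest, median and highest. In both genes control female 5 was the lowest library of all, and the other libraries of the 4 groups overlapped. Their log2 fold changes were 0.13 ± 0.21 in females and -0.051 ± 0.21 in males (-0.024 ± 0.11 and -0.037 ± 0.11 without the 5 libraries) for Ndn, and 0.31 ± 0.38 in females and -0.064 ± 0.37 in males (0.052 ± 0.13 and -0.14 ± 0.13 without the 5 libraries) for Magel2. Ube3a, the ubiquitin ligase lost in Angelman syndrome, spanned lowest, median and highest levels of 113, 143 and 160.5 CPM for control females, 99.97, 133 and 174 CPM for obesogenic females, 93.1, 149 and 173 CPM for control males and 121, 151 and 196 CPM for obesogenic males, with a log2 fold change of -0.032 ± 0.13 in females and 0.12 ± 0.12 in males (-0.12 ± 0.13 and 0.11 ± 0.13 without the 5 libraries). No group of Ube3a lay apart from another. Atp10a, a lipid flippase gene, lay at 14.3, 17.99 and 24.9 CPM for control females, 15.9, 19.4 and 23.9 CPM for obesogenic females, 7.30, 17.6 and 23.1 CPM for control males and 13.9, 16.1 and 23.8 CPM for obesogenic males (lowest, median, highest).

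Mkrn3, whose product delays puberty, was near 1 CPM, and 2 libraries set its range. Its lowest, median and highest levels were 0.422, 1.01 and 7.22 CPM for control females, 0.244, 0.653 and 1.25 CPM for obesogenic females, 0, 0.787 and 1.55 CPM for control males and 0.633, 1.18 and 1.42 CPM for obesogenic males. Control female 5 had 7.22 CPM against 0.422 to 1.44 CPM in the 6 control females kept, and control male 6 had 0 reads. In edgeR the diet difference in daughters was -1.26 ± 0.53 (adjusted p = 0.577), and -0.39 without control female 5 and -0.29 ± 0.35 without the 5 libraries. All 7 obesogenic female libraries lay below the control female mean, and 4 of 6 without the 5.

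The Dlk1-Dio3 domain on chromosome 12 pairs protein genes read from the paternal copy (Dlk1, Rtl1, Dio3) with non-coding RNAs read from the maternal copy (Meg3, Rian, Mirg). Dlk1 (109452823 to 109463336) encodes a membrane protein of the Notch ligand family that checks cell differentiation. Its lowest, median and highest levels were 0.460, 311 and 416 CPM for control females, 247.02, 324 and 437 CPM for obesogenic females, 258.6, 317 and 372 CPM for control males and 283, 310.4 and 357 CPM for obesogenic males. Control female 5 had almost none, while the lowest of the other 30 libraries was at 246.9 CPM. Dlk1 differed by 0.20 ± 0.45 in females and 0.0052 ± 0.44 in males (-0.094 ± 0.11 and -0.022 ± 0.10 without the 5 libraries) on the log2 scale. Meg3 (109541001 to 109571726) had, over the 26 libraries kept, the widest spread of the members above 100 CPM, and its lowest, median and highest levels over all libraries were 665, 1032 and 1736 CPM for control females, 654, 1329 and 2692 CPM for obesogenic females, 641, 1296 and 1829.9 CPM for control males and 662, 972 and 1664 CPM for obesogenic males. Over all libraries Meg3 differed more than 2-fold between the lowest and highest library of each group, and the groups overlapped throughout. In the 6 control females kept it ran from 925 to 1720 CPM, less than 2-fold. For Meg3 the diet difference was 0.25 ± 0.27 in females and -0.22 ± 0.26 in males (0.014 ± 0.27 and -0.30 ± 0.26 without the 5 libraries). Rian, which hosts small nucleolar RNAs, lay at 356, 665 and 778 CPM for control females, 566, 668 and 839 CPM for obesogenic females, 471, 684 and 729 CPM for control males and 627, 666 and 706 CPM for obesogenic males (lowest, median, highest), with 0.090 ± 0.11 in females and 0.032 ± 0.11 in males (-0.050 ± 0.069 and -0.015 ± 0.065 without the 5 libraries) as its log2 fold change.

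**Figure D3:**
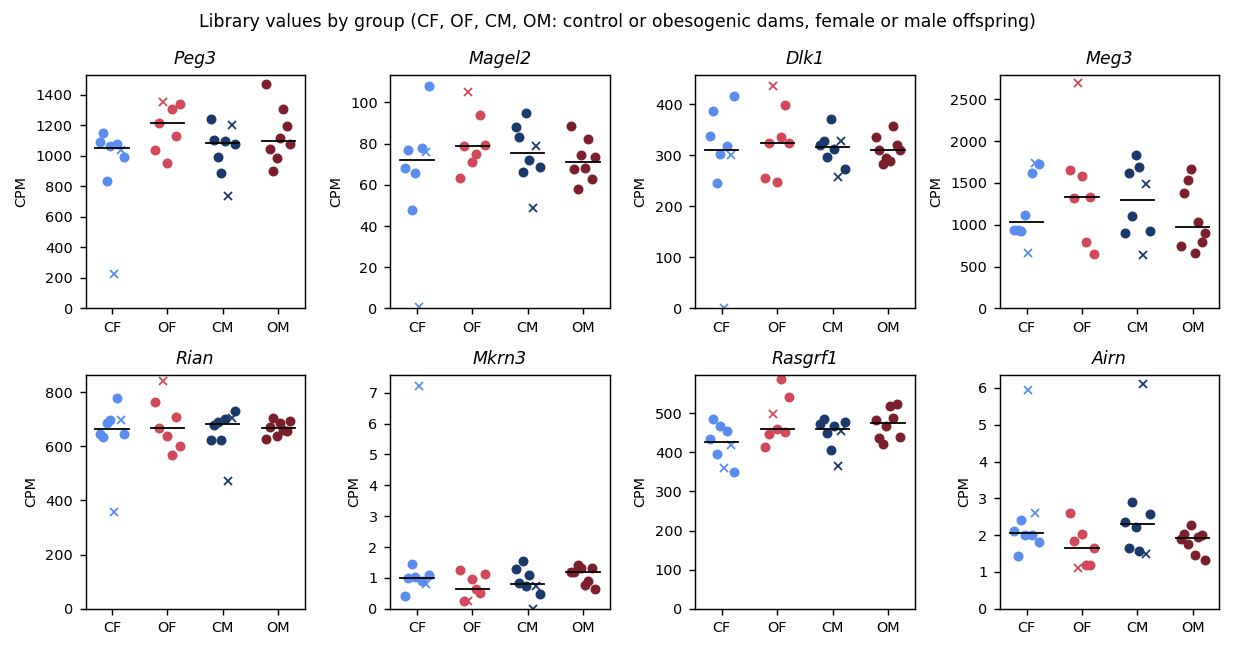
CPM of 8 imprinted genes in each library by group (CF and OF, female offspring of control and obesogenic dams, CM and OM, male offspring), with the median as a line and the 5 libraries in doubt as crosses. Groups overlap in every panel. The cross near 0 in Magel2 and Dlk1, the lowest cross in Peg3 (224 CPM) and the high cross in Mkrn3 are control female 5.

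On chromosome 2, Gnas (174284320 to 174346744) was the member with the most reads, at lowest, median and highest levels of 1232, 2391 and 2693 CPM for control females, 2045, 2434 and 2836 CPM for obesogenic females, 1993, 2326 and 2772 CPM for control males and 2045, 2329.8 and 2663 CPM for obesogenic males. Control female 5 was its lowest library by far, the next lowest being at 1976 CPM, and the groups overlapped. Its log2 fold change for maternal diet was 0.10 ± 0.11 in females and -0.0082 ± 0.11 in males (-0.0060 ± 0.086 and 0.016 ± 0.080 without the 5 libraries). Nespas, an RNA antisense to the Gnas cluster, had 0, 0.0864 and 0.249 CPM for control females, 0, 0.351 and 0.488 CPM for obesogenic females, 0, 0.213 and 0.701 CPM for control males and 0, 0.0858 and 0.377 CPM for obesogenic males (lowest, median, highest), each value resting on few read pairs, and 0 reads in at least 1 library of every group. The difference between the sexes in the diet effect of Nespas was 2.22 ± 1.11 (edgeR adjusted p = 1.0). Nnat, elsewhere on chromosome 2 (157560078 to 157562522), had lowest, median and highest levels of 258.1, 1343 and 2299.9 CPM for control females, 992, 1343 and 1698 CPM for obesogenic females, 1236, 1556 and 2314 CPM for control males and 1067, 1391 and 1772 CPM for obesogenic males. In Nnat control female 5 lay lowest, with 258.1 CPM against 1299.8 to 2299.9 CPM in the control females kept, and control male 6 highest of all. Its log2 fold change was 0.0072 ± 0.23 in females and -0.18 ± 0.22 in males (-0.12 ± 0.15 and -0.048 ± 0.14 without the 5 libraries). H13, encoding signal peptide peptidase, had lowest, median and highest levels of 71.96, 103 and 128 CPM for control females, 93.3, 120.4 and 125 CPM for obesogenic females, 93.4, 105 and 138 CPM for control males and 94.2, 98.3 and 117 CPM for obesogenic males.

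The Peg10 domain on chromosome 6 joins Peg10 (4747306 to 4760517), a retrotransposon-derived gene needed in the placenta, with Sgce, Asb4 and Calcr. Peg10 lay at lowest, median and highest levels of 14.3, 443 and 546 CPM for control females, 471, 558 and 658 CPM for obesogenic females, 196, 502 and 586 CPM for control males and 327, 458 and 814 CPM for obesogenic males. Its log2 fold change was 0.52 ± 0.35 in females and 0.13 ± 0.34 in males (0.29 ± 0.14 and 0.058 ± 0.13 without the 5 libraries). All 7 obesogenic female libraries lay above the control female mean, as did all 6 of those kept, and the ranges still overlapped (edgeR adjusted p = 0.683, and 0.591 without the 5 libraries). Sgce, encoding epsilon-sarcoglycan, had 29.5, 40.3 and 44.2 CPM for control females, 32.7, 39.2 and 45.99 CPM for obesogenic females, 36.5, 42.4 and 51.97 CPM for control males and 33.97, 43.3 and 46.99 CPM for obesogenic males (lowest, median, highest) and a diet difference of -0.014 ± 0.090 in females and -0.040 ± 0.087 in males (-0.025 ± 0.081 and 0.0053 ± 0.075 without the 5 libraries). Calcr, the calcitonin receptor that also serves amylin in appetite circuits, had lowest, median and highest levels of 0, 37.5 and 47.2 CPM for control females, 33.1, 38.8 and 52.1 CPM for obesogenic females, 18.4, 38.4 and 43.1 CPM for control males and 23.8, 41.1 and 44.8 CPM for obesogenic males. Asb4, an ankyrin repeat gene known from appetite neurons, had 0.676, 61.9 and 73.6 CPM for control females, 45.9, 69.1 and 83.004 CPM for obesogenic females, 44.3, 59.8 and 76.2 CPM for control males and 49.8, 66.6 and 94.3 CPM for obesogenic males. For both genes control female 5 was at or near 0 and the groups otherwise overlapped. Calcr differed by 0.28 ± 0.42 in females and 0.050 ± 0.41 in males (0.060 ± 0.15 and -0.045 ± 0.14 without the 5 libraries) and Asb4 by 0.32 ± 0.37 in females and 0.18 ± 0.35 in males (0.18 ± 0.14 and 0.16 ± 0.13 without the 5 libraries) on the log2 scale.

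Members that act on growth and insulin signalling passed the threshold in neither sex. Grb10, on chromosome 11, encodes an adaptor that restrains insulin and IGF receptor signalling, and its lowest, median and highest levels were 59.5, 212 and 245.3 CPM for control females, 200.1, 245.1 and 273.98 CPM for obesogenic females, 151, 219 and 243.1 CPM for control males and 197, 219 and 263.04 CPM for obesogenic males. Its diet difference was 0.29 ± 0.16 in females and 0.10 ± 0.16 in males (0.12 ± 0.089 and 0.056 ± 0.083 without the 5 libraries). Igf2r on chromosome 17, the receptor that clears IGF2, had 27.3, 40.4 and 46.4 CPM for control females, 38.7, 40.9 and 49.4 CPM for obesogenic females, 22.4, 38.7 and 43.05 CPM for control males and 33.9, 39.6 and 51.7 CPM for obesogenic males (lowest, median, highest). All 7 obesogenic females lay above the control female mean of Igf2r, and all 6 of those kept, with log2 fold changes of 0.20 ± 0.12 in females and 0.13 ± 0.12 in males (0.25 ± 0.11 and 0.078 ± 0.10 without the 5 libraries). The edgeR adjusted p of Igf2r in daughters was 0.658, and 0.554 without the 5 libraries, where its unadjusted p was 0.0290 and 1 of 46 members was below 0.05 (background 8.4%). Cdkn1c, the growth-restraining cyclin kinase inhibitor p57, was low at 1.65, 4.64 and 7.49 CPM for control females, 2.57, 4.40 and 5.31 CPM for obesogenic females, 2.87, 4.73 and 7.79 CPM for control males and 2.53, 4.29 and 6.65 CPM for obesogenic males (lowest, median, highest). It differed by -0.19 ± 0.24 in females and -0.22 ± 0.23 in males (-0.42 ± 0.23 and -0.18 ± 0.21 without the 5 libraries), and 5 of 7 obesogenic females lay below the control female mean, or 6 of 6 of those kept. Mest, a maternally silenced hydrolase gene on chromosome 6, spanned 14.99, 22.9 and 52.7 CPM for control females, 17.5, 20.7 and 27.7 CPM for obesogenic females, 13.9, 21.7 and 32.8 CPM for control males and 14.4, 20.2 and 26.7 CPM for obesogenic males, again lowest, median and highest. Its highest library was control female 5, and its diet difference was -0.20 ± 0.20 in females and -0.12 ± 0.20 in males (0.015 ± 0.16 and -0.094 ± 0.15 without the 5 libraries). H19, the abundant fetal non-coding RNA, had adult levels of 0.0541, 0.346 and 0.640 CPM for control females, 0, 0.230 and 1.87 CPM for obesogenic females, 0.0351, 0.449 and 0.758 CPM for control males and 0, 0.467 and 0.543 CPM for obesogenic males with a log2 fold change of 0.76 ± 0.70 in females and -0.28 ± 0.68 in males (0.79 ± 0.68 and -0.12 ± 0.65 without the 5 libraries). In females that value ran from 0.16 without obesogenic female 4 to 0.98 without obesogenic female 3. Impact on chromosome 18 lay at 273.1, 799 and 911 CPM for control females, 599.8, 756 and 823 CPM for obesogenic females, 593, 747 and 826 CPM for control males and 659, 783 and 984 CPM for obesogenic males, the lowest again being control female 5, and differed by 0.0035 ± 0.14 in females and 0.11 ± 0.14 in males (-0.14 ± 0.091 and 0.058 ± 0.085 without the 5 libraries).

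The members of smallest p were Rasgrf1, Mkrn3 and Airn in daughters and Airn, Herc3 and Peg13 in sons. Rasgrf1 on chromosome 9, a Ras activator of neurons, had lowest, median and highest levels of 350.4, 426 and 485 CPM for control females, 415, 459 and 586 CPM for obesogenic females, 366, 460.2 and 484 CPM for control males and 422, 476 and 525 CPM for obesogenic males. Its log2 fold change in daughters was 0.21 ± 0.083, with 6 of 7 libraries above the control mean, at an edgeR adjusted p of 0.557. Without the 5 libraries that value was 0.16 ± 0.084 (adjusted p = 0.597). Airn, the non-coding RNA that silences Igf2r on the paternal copy, was near 2 CPM in most libraries, at 1.43, 2.06 and 5.95 CPM for control females, 1.097, 1.64 and 2.60 CPM for obesogenic females, 1.48, 2.30 and 6.11 CPM for control males and 1.33, 1.93 and 2.29 CPM for obesogenic males (lowest, median, highest). Control female 5 and control male 6 held its highest values. Airn gave -0.62 ± 0.29 in daughters, -0.50 ± 0.28 in sons and -0.56 ± 0.20 as the mean of both (edgeR adjusted p = 0.602, 0.940 and 0.464). Without the 5 libraries these were -0.17 ± 0.22, -0.27 ± 0.20 and -0.22 ± 0.15. Herc3, a ubiquitin ligase gene that surrounds Nap1l5, had 70.5, 94.6 and 105 CPM for control females, 88.2, 107 and 125 CPM for obesogenic females, 33.6, 101 and 112 CPM for control males and 95.1, 105 and 131 CPM for obesogenic males (lowest, median, highest) and 0.24 ± 0.14 in sons, 0.12 ± 0.096 without the 5 libraries. Peg13, a non-coding RNA of brain, had 313, 374 and 400.5 CPM for control females, 352, 386 and 484 CPM for obesogenic females, 234, 373 and 413 CPM for control males and 362, 390.5 and 449 CPM for obesogenic males and a diet difference of 0.15 ± 0.090 in sons, 0.082 ± 0.078 without the 5 libraries.

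Averaged over the sexes, 0 of 46 members passed in edgeR (background 0%) and 5 had an unadjusted p below 0.05 (background 10.2%), and 1 without the 5 libraries (background 7.95%). The 3 of smallest p were Airn, Rasgrf1 (0.14 ± 0.057, adjusted p = 0.464) and Herc3 (0.23 ± 0.10, adjusted p = 0.466). Whether maternal diet acted differently in the sexes was tested as an interaction, where 0 of 46 passed (background 0%) and 1 had an unadjusted p below 0.05 (background 3.62%). That one was Mkrn3, at -1.63 ± 0.74 (adjusted p = 1.0), and -0.40 ± 0.48 without the 5 libraries. H13 gave 0.24 ± 0.13 (adjusted p = 1.0).

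Between females and males no member passed the threshold either. Among offspring of control dams 0 of 46 members passed in edgeR (background 0%), and 1 had an unadjusted p below 0.05 (background 4.39%). It was Mkrn3, with a log2 fold change of 1.04 ± 0.51 (female minus male) with all libraries and -0.035 ± 0.35 without the 5. Of the 46, 9 had a log2 fold change above 0 (background 48.9%), and 19 without the 5 libraries (background 50.7%). Nespas (-1.12 ± 0.78) and Sgce (-0.12 ± 0.087) came next. Among offspring of obesogenic dams 0 of 46 passed (background 0%), and 0 had an unadjusted p below 0.05 (background 3.63%). The smallest p belonged to H13 (0.17 ± 0.094), Snrpn (-0.12 ± 0.084) and Atp10a (0.25 ± 0.17). DESeq2 called 0 members in both, and 1 and 12 genes overall. Because 2 libraries go against their sex label, these comparisons were also made without the 5 libraries, where 11 and 14 genes passed overall (background 0.0588% and 0.0749%) and 0 of 46 members in each. In edgeR with all libraries even the sex-linked gene Xist did not pass among offspring of obesogenic dams (adjusted p = 0.0702, the smallest of any gene). Without the 5 libraries Eif2s3y, also sex-linked, had an edgeR adjusted p of 2.99e-20 there. The counts of 0 for sex with all libraries thus do not show that differences are absent. For diet, 0 of all genes tested passed in daughters or in sons, with all libraries or without the 5. Those counts do not show absence either.

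Many members had values in control female 5 that lay outside those of the control females kept. Of the 46 members, 32 lay below every one of the 6 control females kept (background 32.6% of genes) and 6 above (background 28.7%). More than 2-fold below their mean were 18 of 46 (background 10.1%), and more than 2-fold above it 3 (background 7.45%). Dlk1 had 0.460 CPM against 246.9 to 416 CPM in the 6 libraries, Magel2 0.595 CPM against 47.8 to 108 CPM and Asb4 0.676 CPM against 47.3 to 70.6 CPM. Calcr had 0 reads against 24.4 to 47.2 CPM. Peg10 stood at 14.3 CPM against 370.4 to 546 CPM, Rtl1, a retrotransposon-derived protein gene, at 0.0541 CPM against 9.16 to 15.4 CPM, and Ndn at 92.9 CPM against 504 to 701 CPM. Above the others lay Mkrn3, Airn (5.95 CPM against 1.43 to 2.42 CPM) and Mest (52.7 CPM against 14.99 to 29.5 CPM). The low hypothalamic and high olfactory bulb marker sums given above are of the same library, and their part in these values was not tested.

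The other libraries that stand apart were compared in the same way. In control male 6, whose hypothalamic marker sum was 3798 CPM (control males kept 1429 to 2527 CPM), its pan-neuronal sum 4691 CPM (4941 to 5637 CPM) and its oligodendrocyte sum 9575 CPM (5199 to 7227 CPM), 26 of 46 members lay below and 13 above all 6 control males kept (background 37.5% and 33.7% of genes). Kcnq1ot1, the antisense RNA that silences its cluster, had 1.40 CPM against 5.33 to 10.8 CPM, Herc3 33.6 CPM against 79.4 to 112 CPM and Peg10 196 CPM against 389 to 567.9 CPM. Higher there were Commd1 (30.5 CPM against 12.6 to 18.8 CPM), a regulator of copper balance, and Mcts2 (15.97 CPM against 6.80 to 9.32 CPM). In obesogenic female 3, 7 members lay below and 10 above the 6 obesogenic females kept (background 30.1% and 26.9%), a smaller share than of all genes. Meg3 had 2692 CPM against 654 to 1656 CPM there, the highest value of any library, and Plagl1, a zinc finger gene, 117 CPM against 41.1 to 94.3 CPM. The comparisons of control female 5, control male 6 and obesogenic female 3 with their groups were chosen after the data were seen. The part of the marker sums and of the lower number of genes with reads was not tested.

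Covariation was examined next, since genes of a domain can share a control region. The domains used here group listed genes by position. A group such as distal chromosome 7 (H19, Cdkn1c, Kcnq1ot1 and Dhcr7) may hold more than 1 control region. Over the 26 libraries kept, with group means removed from log2 CPM, the 56 pairs of members within a domain had a median correlation of 0.14, and 16.1% of them exceeded 0.5. The 979 pairs of members of different domains had a median of 0.073 and 15.5% over 0.5. With all 31 libraries the medians were 0.25 and 0.26. Whether pairs of 1 domain and pairs of different domains differ was not tested.

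**Figure D4:**
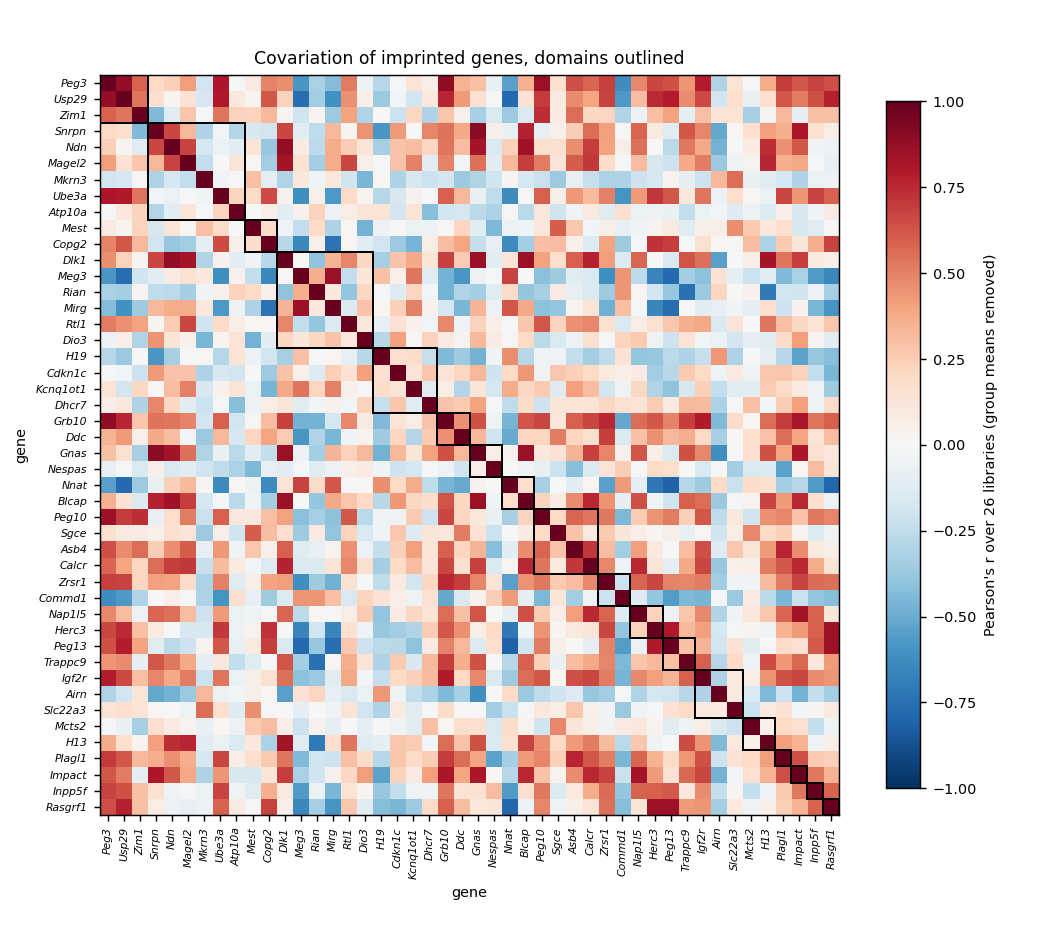
Pearson's correlation between each pair of the 46 tested imprinted genes over 26 libraries after removal of group means (red positive, blue negative), with domains outlined in black. Red blocks inside the outlines join Peg3 with Usp29, Snrpn with Ndn, Meg3 with Mirg and Asb4 with Calcr, and strong colours also lie outside them, as for Snrpn with Gnas.

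Of the 56 pairs, 7 passed a permutation test within groups after adjustment over the pairs (100000 permutations, whose smallest p is 1e-05), and 5 of these passed by Spearman's rho too. The 979 pairs from different domains were not put to this test, so no share stands beside the 7. A correlation over 0.5 was about as frequent between domains (15.5%) as within them (16.1%). Peg3 and Usp29, whose starts lie 147 bases apart in the gene models counted and face away from each other in the sequence above, rose and fell together (r = 0.88, rho = 0.92, p = 1e-05, adjusted p = 0.000280). Without the 2 libraries farthest from the median of Peg3, r was 0.87. Peg10 and Sgce have starts only 99 bases apart, and their correlation was low (r = 0.20, rho = 0.17, p = 0.464, adjusted p = 0.722). Whether these 2 correlations differ was not tested. In the Prader-Willi domain Snrpn went with Ndn (r = 0.67, rho = 0.69, p = 0.000350, adjusted p = 0.00392) and Ndn with Magel2 (r = 0.68, rho = 0.68, p = 8e-05, adjusted p = 0.00149). Without the 2 farthest libraries these were 0.78 and 0.65. Asb4 and Calcr, genes of appetite neurons that lie on either side of Peg10, also varied together (r = 0.71, rho = 0.72, p = 0.000140, adjusted p = 0.00196; 0.64 without 2 libraries).

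The other called pairs of these domains rested on 2 libraries. Peg3 and Zim1, a maternally read zinc finger gene, had r = 0.59, rho = 0.49 (p = 0.00480, adjusted p = 0.0397, by rho 0.157), and r = 0.37 without obesogenic male libraries 3 and 1. Peg10 and Asb4 had r = 0.58, rho = 0.42 (p = 0.00496, adjusted p = 0.0397, by rho 0.228), and r = 0.32 without the same libraries.

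Among the maternal RNAs of the Dlk1-Dio3 domain, Meg3 and Mirg went together (r = 0.86, rho = 0.87, p = 1e-05, adjusted p = 0.000280; 0.86 without 2 libraries). Over the libraries kept Meg3 ran from 654 to 1829.9 CPM and Mirg, a host of microRNAs, from 7.47 to 28.5 CPM. Rian, which lies between them on the same strand, ran only from 566 to 778 CPM. It showed r = 0.37, rho = 0.32 with Meg3 (p = 0.0960, adjusted p = 0.387) and r = 0.11, rho = 0.11 with Mirg (p = 0.614, adjusted p = 0.767). Meg3 levels have their widest step between 1122 and 1318 CPM. In the 14 libraries below it the correlation of Meg3 with Mirg was 0.53 and in the 12 above it 0.52, as descriptions. The step was taken from the Meg3 CPM values themselves, and the correlations used log2 CPM with group means removed. A narrower range of Meg3 can by itself lower a correlation.

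**Figure D5:**
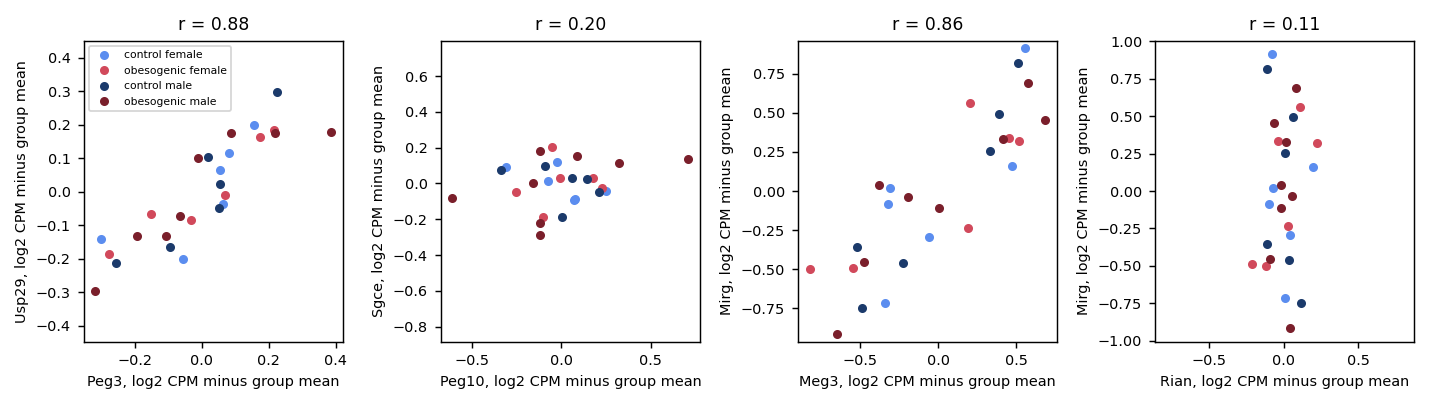
4 pairs of neighbouring imprinted genes, each point 1 of 26 libraries, as log2 CPM minus the group mean, coloured by group. Points of Peg3 with Usp29 and of Meg3 with Mirg rise along a line (r = 0.88 and 0.86), and those of Peg10 with Sgce and of Rian with Mirg do not (r = 0.20 and 0.11).

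Some pairs from different chromosomes had correlations of similar size. Snrpn and Gnas had r = 0.90, Peg3 and Grb10 0.88, Ndn and Dlk1 0.88, Peg3 and Peg10 0.86 and Herc3 and Rasgrf1 0.85 over the same 26 libraries. The lowest were Nnat with Peg13 (-0.81) and Nnat with Rasgrf1 (-0.79). These are among the extremes of 979 pairs and are given as descriptions.

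Members were also correlated with the mean log2 CPM of cell type markers over the 26 libraries with group means removed, a relation looked at after the data were seen and adjusted over 138 correlations (46 members with 3 marker lists). Correlations with the other marker lists, oligodendrocyte markers among them, were computed without a p and are not given here. In bulk tissue, fewer cells of a type and less RNA per cell cannot be told apart. With the 6 astrocyte markers 18 of 46 members passed, where 20.2% of all genes had a p as small. Of these 17 were negative (background 11.2%) and 1, Rian, positive (background 9.05%). Blcap, the neighbour in which Nnat lies, was the lowest (r = -0.88, rho = -0.86, adjusted p = 0.000230 and 0.000345 by permutation, r = -0.85 without 2 libraries). With 7 pan-neuronal markers 22 of 46 passed (background 15.6%), 17 positive (background 8.82%) and 5 negative (background 6.79%), the latter being Airn, Meg3, Rian, Nnat and Commd1. Grb10 was the highest (r = 0.81, rho = 0.80, adjusted p = 0.000230 and 0.000345 by permutation, r = 0.80 without 2 libraries), and Peg3 had r = 0.72, rho = 0.77. With the 16 hypothalamic neuron markers that were tested 10 of 46 passed (background 16.8%), 10 positive (background 7.76%) and 0 negative (background 9.02%). Whether members differ from other genes in these shares was not tested. Ndn (r = 0.80, rho = 0.78, adjusted p = 0.000690 and 0.00107 by permutation, r = 0.70 without 2 libraries), Dlk1 (r = 0.79), Gnas (0.75) and Calcr (0.73) led them. Over the libraries kept the summed level of the astrocyte markers ran from 2739 to 4443 CPM, the pan-neuronal sum from 4941 to 5969 CPM and the hypothalamic sum from 1292 to 2527 CPM. Their part in the correlations between members was not tested.

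Other imprinted genes and the factors that maintain imprints were read from 2 further lists. Of 37 other imprinted genes 31 were tested, and 0 passed in edgeR for maternal diet in either sex (background 0% in both). In daughters 13 had log2 fold changes above 0 and 18 below (median -0.053), and in sons 14 and 17 (median -0.0074). The 2 of smallest p were Dlx5, a homeobox gene (-1.02 ± 0.41), and the potassium channel gene Kcnk9 (0.35 ± 0.16) in daughters, and Kcnq1 (1.08 ± 0.54) and Tssc4 (-0.25 ± 0.13) in sons. Dlx5 gave -0.021 ± 0.20 in daughters without the 5 libraries. Of 14 maintaining factors 10 were tested and 0 passed. Dnmt1, the maintenance DNA methyltransferase, differed by 0.18 ± 0.095 in daughters (edgeR adjusted p = 0.632), and by 0.28 ± 0.082 without the 5 libraries (adjusted p = 0.543). Zfp57 itself gave 0.23 ± 0.17 in daughters. In sons the histone methyltransferase gene Setdb1 gave 0.18 ± 0.076 and Uhrf1, which guides DNMT1 to replicating DNA, -0.47 ± 0.20 (edgeR adjusted p = 0.940 for both).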

How the data were processed

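Hypothalamic total RNA was sequenced in 31 libraries. The authors deposited raw counts of read pairs per gene. Per the file headers these come from featureCounts 1.6.2 on Ensembl GRCm38 release 94, with both ends mapped, reverse strand and a mapping quality of at least 10, and an exon length per gene. Per the submitters' processing notes TopHat2 2.0.13 and build mm10 were used. Of the genes, 54409 were given symbols, and 0 columns of counts were left unused. Tests used edgeR 4.0.16 in R 4.3.3 on all libraries with 1 mean per group (filterByExpr, TMM, robust quasi-likelihood), Benjamini and Hochberg's adjustment over all genes and a threshold of 0.05. Alternatives were DESeq2 1.42.0, limma 3.58.1 voom, other scaling and filters, and libraries left out. CPM is TMM-scaled, RPKM divides it by exon length, marker sums are CPM without TMM, spreads and single-library folds used log2(CPM + 0.5), and correlations used log2 CPM with a prior count of 2. Libraries of a group differed by far more than sampling (smallest chi-square over its degrees of freedom 10.9, 105 pairs), so all were kept as separate samples. A library in doubt correlated with the rest by over 3 median absolute deviations less than usual, or went against its sex label. Named genes were 21 chosen members and the 3 of smallest p in each contrast, with the 2 of smallest p of each further list. The members, lists and rules were chosen with earlier results of these data known. The edgeR fit was tried on simulated counts, for diet in females only.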

Additional observations from a re-analysis of the deposited data

Results flagged for a closer look

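Within each group a library was singled out when its distance from the nearest other library took up more of the group's range than Dixon's 95% criterion allows. Of 116 groups examined (29 named members in 4 groups), 20 held such a library (17.2%). Chance gives about 1 in 20 for libraries alike in all else, and the same criterion over all tested genes singled out a library in 12325 of 74972 groups (16.4%), a share close to that of the members. Control female 5 was singled out in 13 of the 29 members (44.8%) and 18% of all genes, control male 6 in 6 (20.7%) and 22.3%. Control female 5 was far below the other control females in Peg3 (224 CPM, the others 833 to 1145 CPM), Usp29 (59.8 CPM, the others 171 to 226 CPM), Ndn (92.9 CPM, the others 504 to 701 CPM), Dlk1 (0.460 CPM, the others 246.9 to 416 CPM), Rian (356 CPM, the others 635 to 778 CPM), Peg10 (14.3 CPM, the others 370.4 to 546 CPM), Sgce (29.5 CPM, the others 38.2 to 44.2 CPM), Grb10 (59.5 CPM, the others 180.3 to 245.3 CPM), Asb4 (0.676 CPM, the others 47.3 to 73.6 CPM) and Impact (273.1 CPM, the others 646 to 911 CPM). It was far above them in Mest (52.7 CPM, the others 14.99 to 29.5 CPM), Airn (5.95 CPM, the others 1.43 to 2.59 CPM) and Mkrn3 (7.22 CPM, the others 0.422 to 1.44 CPM). Control male 6 was far below the other control males in Rian (471 CPM, the others 622 to 729 CPM), Calcr (18.4 CPM, the others 34.3 to 43.1 CPM), Igf2r (22.4 CPM, the others 34.5 to 43.05 CPM) and Herc3 (33.6 CPM, the others 79.4 to 112 CPM). It was far above them in Snrpn (475 CPM, the others 293 to 346 CPM) and Airn (6.11 CPM, the others 1.48 to 2.90 CPM). Control male 2, which did not stand apart, was far above in Nespas (0.701 CPM, the others 0 to 0.330 CPM), a gene of few reads. The marker sums of control female 5 and control male 6 are given with the results above. Their part in these values was not tested.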

How the results depend on the processing

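In each of the 6 contrasts 0 members passed under every setting run: DESeq2, limma voom with quality weights, RLE scaling, no filter, 1 CPM in 7 libraries, 4 choices of libraries and each library left out in turn, and also only the 2 groups compared, which could not be run for the mean of both sexes and the interaction. The smallest adjusted p of a member was 0.274 (Rasgrf1, daughters, without control male 6). Counts over all genes moved from 0 to 6, 1, 5, 6, 1 and 12 with DESeq2 (diet in females, in males, their mean, interaction, sex in control, sex in obesogenic). Sex in control called 10 genes without the libraries against their sex label, 11 without both kinds, and 0 to 6 leaving out 1 library (6 without control female 7). Sex in obesogenic called 2 with limma voom, 12 with only the 2 groups, 1, 9 and 14 without those that stand apart, those against their label and both, and 0 to 9 leaving out 1 (9 without control female 7). Signs of small log2 fold changes turned for diet in females with limma voom (Gnas -0.025, Impact -0.13, Meg3 -0.0073, Mest 0.024, Ndn -0.0098, Nnat -0.020 and Rian -0.038), without the 3 libraries that stand apart (Dlk1 -0.063, Gnas -0.0049, Impact -0.12, Meg3 -0.060, Mest 0.059, Ndn -0.018, Nnat -0.092 and Rian -0.045) and without 5 (Dlk1 -0.094, Gnas -0.0060, Impact -0.14, Mest 0.015, Ndn -0.024, Nnat -0.12 and Rian -0.050). For diet in males they turned with limma voom (Calcr -0.048, Dlk1 -0.0067, Gnas 0.043, Ndn 0.041, Peg10 -0.071, Rian -0.030, Sgce 0.014, Snrpn 0.050 and Ube3a -0.0006), without the 3 (Calcr -0.054, Dlk1 -0.036, Gnas 0.020, Rian -0.031 and Snrpn 0.045), without 5 (Calcr -0.045, Dlk1 -0.022, Gnas 0.016, Rian -0.015, Sgce 0.0053 and Snrpn 0.054), with 1 CPM in 7 libraries (Dlk1 -0.0024) and without the 2 libraries with 2 numbers in the title (Dlk1 -0.0099 and Gnas 0.0016). Mkrn3 for sex in control turned to -0.098, -0.021 and -0.035 under the first 3 of these. Leaving out 1 library gave sign changes within Impact -0.12 to 0.053, Mest -0.28 to 0.038, Ndn -0.025 to 0.20, Nnat -0.15 to 0.16, Sgce -0.061 to 0.027 and Ube3a -0.098 to 0.031 for females and Calcr -0.050 to 0.12, Dlk1 -0.033 to 0.046, Gnas -0.043 to 0.024, Rian -0.027 to 0.053, Sgce -0.071 to 0.0006 and Snrpn -0.065 to 0.049 for males. Pairs past the threshold numbered 16 with all 31 libraries, against 7, and r of Rian and Mirg was -0.040 without 2 libraries. The causes were not tested. No paired analysis was possible because the replicate numbers only name libraries and pair none. Members under 1 CPM rest on few read pairs, and alleles cannot be told apart.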

Other observations

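Meg3 sat on both sides of its widest step in each group. Of the libraries kept, 4 control and 2 obesogenic females, and 3 control and 5 obesogenic males, lay at or below 1122 CPM, and 2, 4, 3 and 3 at or above 1318 CPM. The step was 1.17-fold and the next widest 1.13-fold.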
